A study of Mus musculus with 4 samples.

Results

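Transcripts of 10 genes that the tumour suppressor p53 switches on to stop the cell cycle or start cell death were compared between collecting duct cells lacking the (pro)renin receptor and wild-type cells. The genes, Cdkn1a, Mdm2, Bax, Bbc3, Pmaip1, Ccng1, Sesn1, Phlda3, Trp53inp1 and Perp, were taken by symbol, through the accession of each probe, out of 16006 genes tested. All 10 had a probe on the array, 15 probes in all, and all 10 passed the filter on dim probes, which asked for a signal well above background on both arrays of 1 genotype. The knockout cells came from HoxB7CreEGFP+; PRR flox/flox mice and the reference cells from CreEGFP+ PRR+/+ mice, both at postnatal day 1, so both groups carried the Cre and fluorescent protein transgene. The HoxB7 promoter is active in the ureteric bud and the collecting ducts that grow from it, and EGFP+ cells were sorted by flow cytometry. On 2 arrays knockout RNA was labelled with Cy5, against wild-type pool 1 (KO replicate 1) or pool 2 (KO replicate 2) in Cy3. On the other 2 arrays pool 1 (WT replicate 1) or pool 2 (WT replicate 2) carried both dyes. Each pool combined cells, and how many animals it held is not stated in the labels. Groups follow the source named for each channel, because the titles call the knockout arrays wild type and the self-hybridised arrays KO. If the titles were right, each Cy5 difference between genotypes would turn its sign, while differences between the pools would not. The descriptions also exchange the pools of the self-hybridised arrays, giving pool 2 where the source names and titles give pool 1. If they were right, values of pool 1 and pool 2 from those arrays would change places, and so would every comparison with a single pool that rests on them.

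p53 is held at a low level by the ubiquitin ligase Mdm2 and accumulates after DNA damage and other stress. It then binds response elements built from a pair of half-sites and activates genes of cell cycle arrest, such as the cyclin-dependent kinase inhibitor gene Cdkn1a (p21), and of mitochondrial cell death, such as Bax, Bbc3 (Puma) and Pmaip1 (Noxa). In mice, loss of Mdm2 from the ureteric bud unleashes p53 and leads to small, malformed kidneys.

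The Cy5 channel held usable signal on all 4 arrays, with 18424 to 22713 of 41174 probes well above background, and no spot was saturated. The Cy3 channel of KO replicate 1 was nearly empty, with 28 such probes, so levels were compared between arrays in Cy5. Atp6ap2, which encodes the receptor, stood at 8.08 and 7.72 (log2) in knockout and 8.37 and 8.51 in wild type, a difference of -0.54 ± 0.17 (SE over n = 2 arrays in each group; adjusted p = 0.802 by limma). Where its probe lies relative to the deleted part is not known here. Collecting duct and ureteric bud markers were present, 15 of 16 being tested (Wnt11 was bright but lacked a usable spot on WT replicate 1), with summed levels of 59895 and 63054 in knockout, 60162 in pool 1 and 50380 in pool 2. The 8 proximal tubule markers tested, of 13, summed to 2121 and 1612 in knockout, 2909 in pool 1 and 24606 in pool 2, while Lrp2, Cubn and Miox had no probe by symbol, Hnf4a was too dim and Slc22a6 was bright but lacked a usable spot on WT replicate 1. Pool 2 thus stood apart from the 3 other Cy5 channels. In bulk RNA of this kind, fewer cells of a type and less RNA per cell cannot be told apart.

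The p53 target genes did not move together. Pmaip1 was the member with the greatest positive difference, 1.52-fold over wild type, and Perp, which encodes a tetraspan membrane protein of desmosomes and cell death, had the greatest negative one, at 0.755 of wild type. Bbc3 lay slightly above both wild-type pools. Cdkn1a, Phlda3 and Sesn1 differed more between the wild-type pools than between genotypes. So did Bax, Mdm2, Ccng1 and Trp53inp1, whose differences between genotypes stayed within 0.06 of zero on the log2 scale.

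None of the 10 genes passed limma's test at an adjusted p under 0.05. Over all 16006 genes, 0 were higher and 0 lower, or 0% called, with a smallest adjusted p of 0.802 and 667 genes at an unadjusted p under 0.05 (494 higher, 173 lower). Of the members, 2 had an unadjusted p under 0.05, Pmaip1 and Perp. The median difference of the 10 was 0.047 (log2, knockout minus wild type), beside 0.024 over all genes. Both knockout arrays lay above both wild-type arrays for 2 members (Bbc3, Pmaip1), where 22.4% of all genes did, and below both for 1 (Perp), where 17.2% of all genes did, so these counts are close to the background. Leaving out WT replicate 1 gave 4190 genes called, 26.2% of all, where the 2 knockout arrays were the only source of the residual spread. Pmaip1 (adjusted p = 0.0133), Perp (adjusted p = 0.0109) and Phlda3 (adjusted p = 0.0245) were among them.

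**Figure D1:**
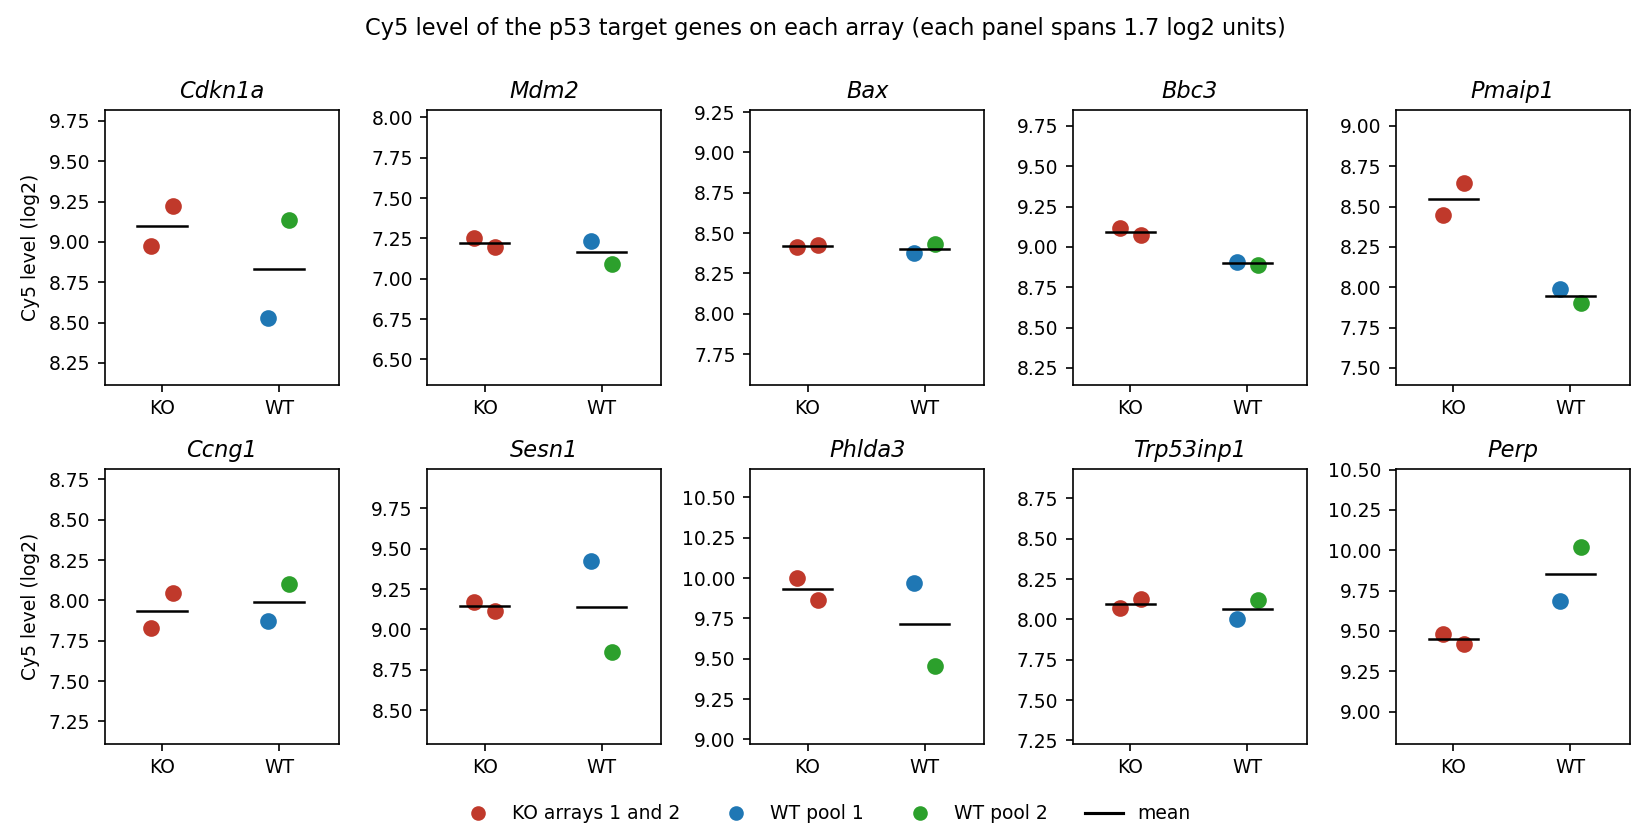
Cy5 level of each p53 target gene on the log2 scale, with knockout arrays (red) on the left and wild-type pool 1 (blue) and pool 2 (green) on the right of each panel; bars mark the mean of 2 arrays. The knockout points of Pmaip1 and Bbc3 lie above both wild-type points, those of Perp lie below both, and the pools stand far apart for Cdkn1a, Sesn1 and Phlda3.

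The BCL2 family genes of the list act at the mitochondrion, where BH3-only proteins such as Noxa and Puma bind the protective members of the family and Bax opens the outer membrane. Pmaip1 (chr18:66458604-66465558, GRCm38.p6, by the RefSeq annotation) had Cy5 levels of 8.45 and 8.65 (log2) on KO replicates 1 and 2, against 7.99 in pool 1 and 7.90 in pool 2. Both knockout values were well above both wild-type values, and the spread within either genotype (SD 0.14 in knockout, 0.06 in wild type) was small beside the gap. Pmaip1 had only 1 probe, with 1 spot on each array, so no other probe or spot checks these values. The same holds for Bbc3, Phlda3 and Perp. The difference was 0.61 ± 0.13 (SE, n = 2 each; 95% interval 0.27 to 0.94; limma adjusted p = 0.802). Its unadjusted p was 0.00612. Of all genes tested, 37 had a p as small, and 1.71% had a difference as high. Against the pools one by one the knockout mean stood 1.47-fold over pool 1 and 1.57-fold over pool 2. On the array where knockout and pool 2 were hybridised together, the log2 ratio of Cy5 over Cy3 was 0.70, or 1.63-fold, while the self-hybridised arrays, with the same RNA in both dyes, read 0.026 and -0.0024 for this probe. As a contrast of log ratios over all 4 arrays the difference was 0.36; the ratio on KO replicate 1, with its nearly empty Cy3 channel, was 0.029.

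Bbc3 (chr7:16308398-16318334) read 9.12 and 9.07 in knockout, against 8.91 in pool 1 and 8.89 in pool 2. The groups did not overlap, but the gap was narrow, 0.19 ± 0.11 (SE, n = 2 each; 95% interval -0.09 to 0.48; limma adjusted p = 0.802). The ratio on the shared array was 0.092, beside self-hybridised ratios of -0.14 and 0.047 for this probe. Bax (chr7:45461695-45466903) read 8.41 and 8.42 in knockout, against 8.38 in pool 1 and 8.43 in pool 2. These values overlapped, with a difference of 0.0135 ± 0.11 (95% interval -0.27 to 0.30; limma adjusted p = 0.978; n = 2 each). Its probe is spotted 10 times per array, and on each array the SD over spots, 0.07 to 0.14, was wider than the gap between genotypes.

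Among the arrest genes, Cdkn1a (chr17:29090979-29100722) is the classic p53 target, and its p21 protein blocks the kinases that drive cells into S phase. It carried the fullest match to a p53 element among the members. The RefSeq windows from 250 bases before to 50 after a transcript start were searched for the p53 half-site consensus, which reads the same on both strands, and for the full site of 2 half-sites with up to 13 bases between them. Of 32851 windows of all genes, 8.36% held a half-site and 0.073% (24 windows) a full site. Windows were listed for 7 of the 10 members (11 windows), all but Perp, Trp53inp1 and Pmaip1. Half-sites were found in 5 of the 11, in 1 window each for Cdkn1a, Mdm2, Bax, Ccng1 and Sesn1. The 1 full site by exact match lay upstream of Cdkn1a. Its half-sites started 73 and 51 bases before the start with 12 bases between them. No mismatch was allowed. The bases tgacatgttc, directly after the second half-site, were thus not counted, although only their first base departs from the consensus. Before a later Cdkn1a start (chr17:29093519-29093768) there were 0 half-sites. The 250 bases before the start with the full site are shown because they hold it, with the exact half-sites in capitals (chr17:29090729-29090978, plus strand, GRCm38.p6, RefSeq).
Cdkn1a: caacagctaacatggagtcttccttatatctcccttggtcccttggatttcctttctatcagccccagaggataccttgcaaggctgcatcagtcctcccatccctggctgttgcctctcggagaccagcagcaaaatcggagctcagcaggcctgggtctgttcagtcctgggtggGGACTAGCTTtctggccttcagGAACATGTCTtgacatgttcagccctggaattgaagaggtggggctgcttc

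The half-sites of the other genes are given with 15 bases on each side, on the strand of the gene, to show how the single matches differ (GRCm38.p6, RefSeq). They lie at chr10:117710920-117710959 (minus strand) for Mdm2, chr7:45467075-45467114 (minus) for Bax, chr11:40755447-40755486 (minus) for Ccng1 and chr10:41887251-41887290 (plus) for Sesn1. In that order they start 186, 201, 185 and 173 bases before a transcript start. For Sesn1 that is a start inside the gene, and before the start of the gene span (chr10:41810324-41810573) there were 0 half-sites.
Mdm2: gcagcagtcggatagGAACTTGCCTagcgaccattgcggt
Bax: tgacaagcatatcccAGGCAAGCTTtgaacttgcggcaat
Ccng1: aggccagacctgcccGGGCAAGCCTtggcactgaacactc
Sesn1: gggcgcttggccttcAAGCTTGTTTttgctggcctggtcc

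A match of letters is a description and says nothing of binding in these cells. The gene with the full site, Cdkn1a, read 8.97 and 9.22 in knockout, against 8.53 in pool 1 and 9.14 in pool 2. Knockout lay well above pool 1 only, at 1.49-fold, and level with pool 2, at 0.973-fold. The difference over both pools was 0.27 ± 0.24 (SE, n = 2 each; 95% interval -0.36 to 0.89; limma adjusted p = 0.812), and the direction turned, to -0.04, without WT replicate 1.

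Spotted 10 times on each array, the Cdkn1a probe allowed a look at error within an array. Single spots ran between 8.30 and 8.71 in pool 1, between 8.92 and 9.25 in pool 2, and from 8.84 upward in the knockout channels, so every spot of pool 1 read below every spot of the other 3 arrays. The SD over spots was 0.10 to 0.14. The gap of 0.61 between the wild-type pools was thus far wider than spot error, although spots of 1 array are not replicates of a condition. At least this gap was found in 11.9% of all genes tested.

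**Figure D2:**
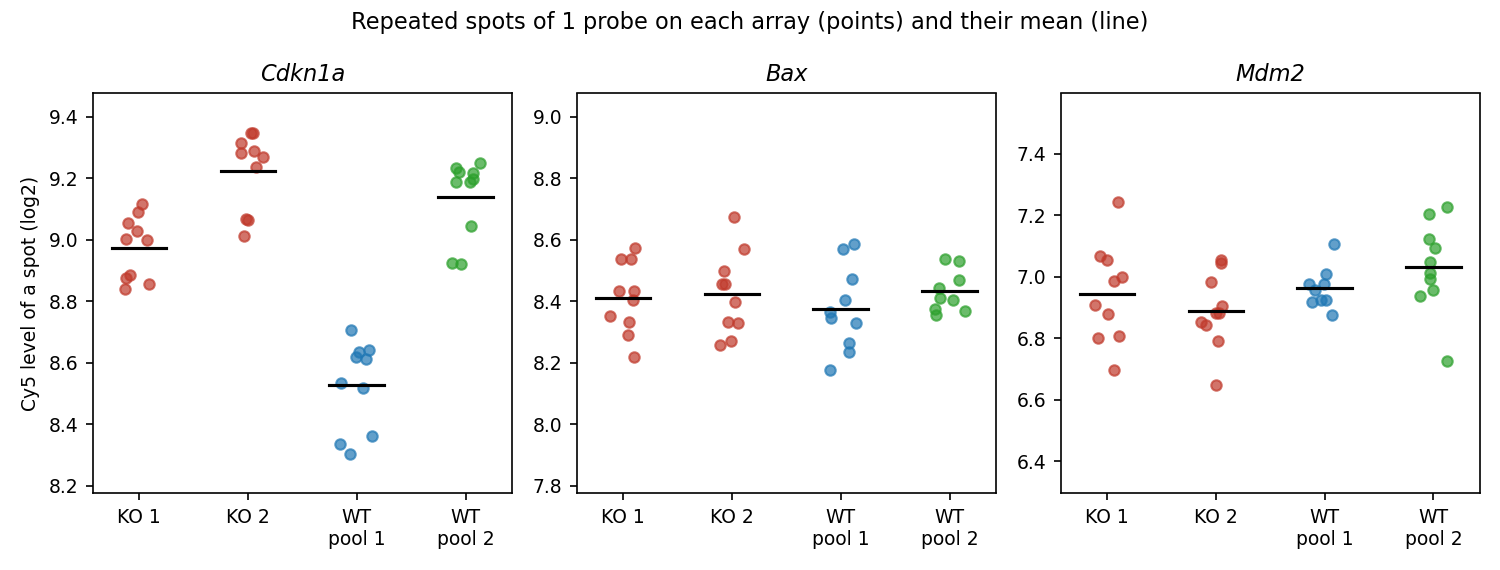
Cy5 level (log2) of every spot of the probes of Cdkn1a, Bax and Mdm2 that are repeated on the array; each point is a spot, the line is the mean of 9 or 10 spots, knockout arrays are red, pool 1 blue and pool 2 green. The pool 1 spots of Cdkn1a, at 8.30 to 8.71, lie below those of the other arrays, while the spots of Bax and Mdm2 overlap between all arrays.

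Mdm2 (chr10:117688875-117710758), the feedback inhibitor of p53 and itself a p53 target, read 7.25 and 7.19 in knockout, against 7.24 in pool 1 and 7.09 in pool 2 with its brighter probe. The difference was 0.06 ± 0.12 (SE, n = 2 each; 95% interval -0.25 to 0.37; limma adjusted p = 0.900). Its other probe, spotted 10 times, read 6.94 and 6.89 in knockout and 6.96 and 7.03 in wild type, a difference of -0.08, so the probes had opposite signs. The SD over the spots of that probe was 0.07 to 0.16 on the 4 arrays. Ccng1 (chr11:40748552-40755309), which encodes cyclin G1, a partner of protein phosphatase 2A, read 7.83 and 8.05 in knockout, against 7.87 in pool 1 and 8.10 in pool 2. The knockout arrays differed from each other by 0.22 and the pools by 0.23, beside a difference between genotypes of -0.05 ± 0.15 (95% interval -0.44 to 0.34; limma adjusted p = 0.933; n = 2 each). The second Ccng1 probe stood at -0.19.

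The remaining members act in stress metabolism, signalling and cell contact. Perp (chr10:18845071-18857073) read 9.48 and 9.42 in knockout, against 9.69 in pool 1 and 10.02 in pool 2. The knockout arrays were close to each other and lay below both pools, mainly below pool 2. The difference was -0.41 ± 0.15 (SE, n = 2 each; 95% interval -0.81 to -0.0025; limma adjusted p = 0.802). Its unadjusted p was 0.0491, and 3.82% of all genes had a difference as low. It was 0.848-fold relative to pool 1, 0.672-fold relative to pool 2 and 0.680-fold on the shared array (log2 ratio -0.56, with -0.10 and -0.004 on the self-hybridised arrays). The wider gap to pool 2 came with that pool's high proximal tubule levels, whose part in the result was not tested. With median centring in place of quantile normalization Perp stood at 0.14, still below the median of all genes, which that scaling moved to 0.33.

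Phlda3 (chr1:135766085-135769134), which encodes an inhibitor of the kinase Akt, read 10.00 and 9.87 in knockout, against 9.97 in pool 1 and 9.46 in pool 2. Knockout and pool 1 overlapped, and pool 2 was low. The knockout mean stood at 0.977-fold of pool 1 and 1.39-fold of pool 2, and the shared array with pool 2 gave 1.29-fold. Over both pools the difference was 0.22 ± 0.20 (SE, n = 2 each; 95% interval -0.31 to 0.75; limma adjusted p = 0.814), and without WT replicate 2 it was -0.03.

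Sesn1 (chr10:41810574-41908436), which encodes sestrin 1, a restraint on the growth kinase mTORC1, read 9.17 and 9.11 in knockout, between 9.42 in pool 1 and 8.86 in pool 2. The difference was 0.0006 ± 0.21 (SE, n = 2 each; 95% interval -0.56 to 0.56; limma adjusted p = 0.999), made of -0.28 against pool 1 and 0.28 against pool 2. The other Sesn1 probes stood at -0.08 and -0.12. Trp53inp1 (chr4:11156441-11174379), which encodes a nuclear and autophagy protein that promotes p53 activity, read 8.07 and 8.12 in knockout, against 8.002 in pool 1 and 8.123 in pool 2, a difference of 0.03 ± 0.12 (95% interval -0.27 to 0.34; limma adjusted p = 0.943; n = 2 each). Its second probe disagreed in size, with 7.93 and 8.05 in knockout, above 7.79 in pool 1 and 7.66 in pool 2, and a difference of 0.27. The ratio on the shared array was 0.57 for that probe and 0.25 for the first, which also read 0.20 and 0.18 on the self-hybridised arrays.

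**Figure D3:**
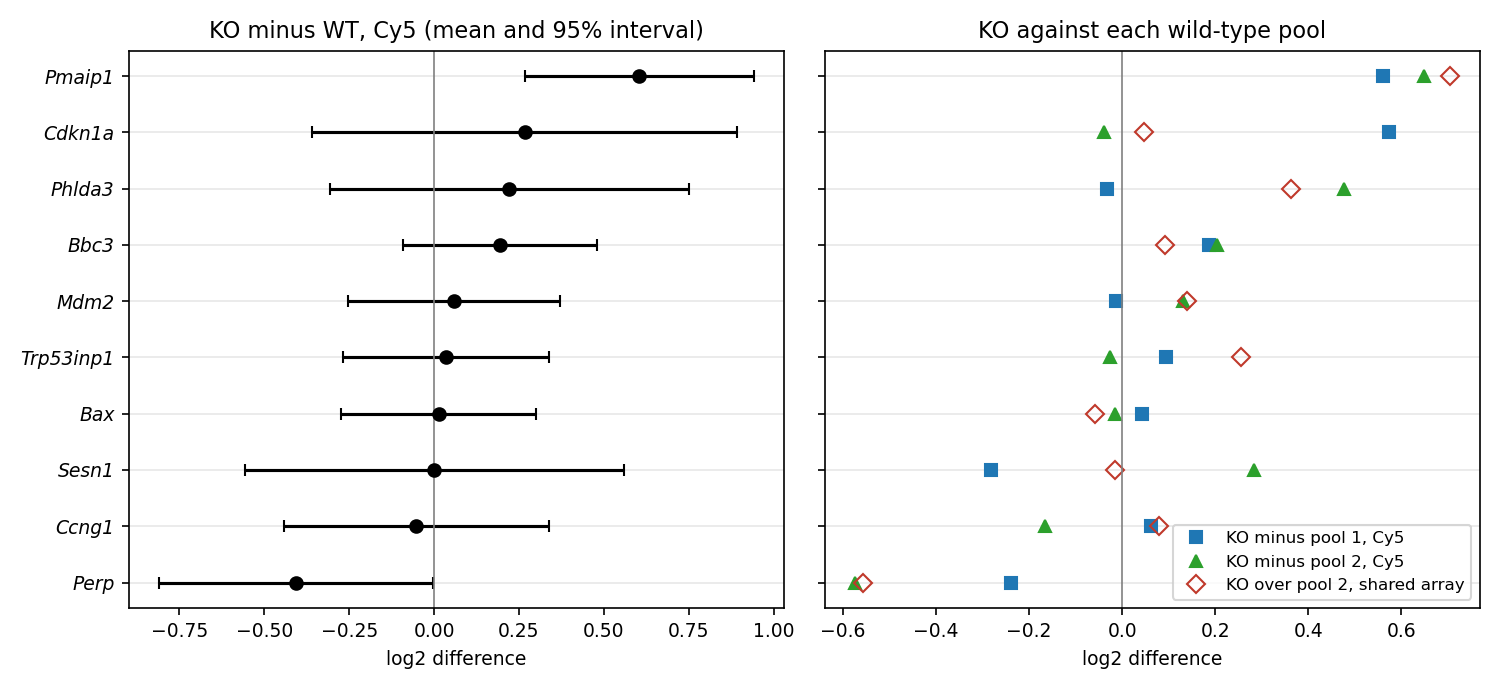
Left, log2 difference of knockout minus wild type in Cy5 for each p53 target gene with its 95% interval from limma (2 arrays per group, not adjusted for the number of genes); right, the knockout mean minus pool 1 (squares) and minus pool 2 (triangles) in Cy5, and the log2 ratio of knockout over pool 2 on their shared array (open diamonds). Pmaip1 has all 3 values between 0.56 and 0.70 and Perp between -0.57 and -0.24, while Cdkn1a, Phlda3 and Sesn1 are near or below zero against 1 pool and above it against the other.

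Taken pool by pool, the knockout mean was above pool 1 in 6 of the 10 genes and above pool 2 in 5, and in 7 of 10 the signs against the pools were opposite. The shares of all genes for these counts were not computed, so the counts are not read as particular to the members. The medians over the members were 0.053 against pool 1 and 0.057 against pool 2, beside 0.0002 and 0.048 over all genes. These comparisons share the knockout arrays. On the array shared with pool 2, 1 member was at least 1.5-fold higher in knockout (Pmaip1), where 6.43% of all genes were, and 0 were at least 1.5-fold lower, where 4.99% of all genes were.

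The 3 usable Cy3 channels, pool 1 and pool 2 on the self-hybridised arrays and pool 2 beside knockout on KO replicate 2, gave further readings of the pools. With the 7 usable channels normalized together, on a scale of its own, Pmaip1 read 8.004 and 8.178 (log2) in knockout, against 7.51 to 7.61 over the 5 wild-type channels. Perp read 8.96 and 8.89 in knockout, against 9.15 to 9.52 over the wild-type channels. These were the only members whose knockout channels lay wholly above (1 of 10) or below (1 of 10) the wild-type ones, which 12.1% and 7.94% of all genes did. Bbc3, at 8.56 to 8.61 in knockout, overlapped the wild-type channels, which reached 8.62 in Cy3 of pool 1.

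The gaps between the pools repeated in the other dye. Cdkn1a stood lower in pool 1 than in pool 2 by 0.56 in Cy5 and 0.50 in Cy3. Phlda3 stood higher in pool 1 by 0.49 in Cy5 and 0.54 in Cy3, and Sesn1 by 0.53 and 0.22. Pool 2 beside knockout on KO replicate 2, whose source name and description agree on the pool, read 8.66 for Cdkn1a and 8.95 for Phlda3, beside 8.62 and 8.93 in Cy3 of the array taken as pool 2 and 8.11 and 9.47 in Cy3 of the array taken as pool 1. Over the 8 tested proximal tubule markers, the median log2 ratio of knockout over pool 2 on the shared array was -2.85. In Cy5 the median difference of knockout was -0.37 against the array taken as pool 1 and -2.82 against that taken as pool 2. The sign of pool 1 minus pool 2 was the same in both dyes for all 10 genes, some with small gaps, such as Bbc3 at 0.0165 in Cy5 and 0.20 in Cy3. The share of all genes with the same sign was not computed. Both dyes of a self-hybridised array carry the same pool on the same spots, so this repeats the labelling and not the animals or the array. Pool 2 also held more signal of proximal tubule markers, of the 5 tested loop of Henle and distal tubule markers of 7 (2089 and 1898 in knockout, 2400 in pool 1, 9197 in pool 2, summed) and less of the 4 tested erythroid markers of 8 (24521 and 17381 in knockout, 29639 in pool 1, 10176 in pool 2). The part of these in the gaps between the pools was not tested.

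**Figure D4:**
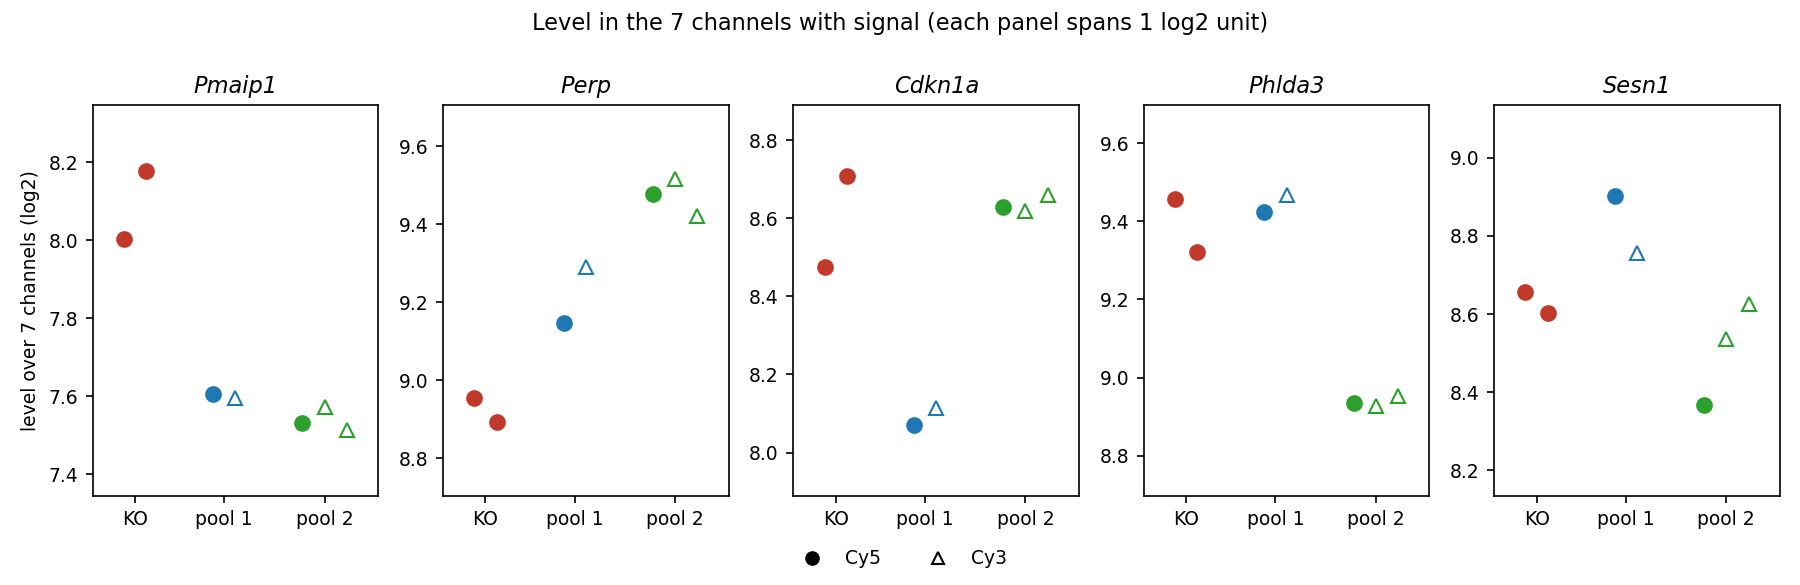
Level (log2, quantile normalized over the 7 channels with signal) of 5 p53 target genes in knockout (red), pool 1 (blue) and pool 2 (green); filled circles are Cy5 and open triangles Cy3. Pmaip1 in knockout, at 8.004 and 8.178, lies above every wild-type channel and Perp, at 8.96 and 8.89, below, whereas Cdkn1a, Phlda3 and Sesn1 separate pool 1 from pool 2 in both dyes.

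The wider p53 and cell death pathway was read from 8 lists holding 133 other genes, of which 111 were tested and 0 passed. Of the 111, 4 had an unadjusted p under 0.05, where 4.17% of all genes did, so this count is near the background. The other p53-induced genes, which repair DNA, arrest cells or signal outward, were 32 tested of 40. Of these 20 had a positive and 12 a negative difference, 8 lay above both pools and 2 below, and the median was 0.051. Over all genes, 55.2% had a positive difference, 22.4% lay above both pools and 17.2% below both. The positive and higher counts are thus near the background, and the count below both pools is under it. Of the 32, 3 had an unadjusted p under 0.05, where 4.17% of all genes did. Gdf15, a secreted stress cytokine, read 9.72 and 10.16 in knockout, against 9.03 in pool 1 and 9.22 in pool 2. Its difference of 0.82 ± 0.19 (SE, n = 2 each; limma adjusted p = 0.802) came with a ratio of 0.99 on the shared array. Abhd4, a lipid hydrolase gene, stood at 0.45, Ptp4a3, which encodes a protein tyrosine phosphatase, at 0.33, and Gadd45a, a growth arrest and DNA damage gene, at 0.25, each with both knockout arrays above both pools. On the shared array Gadd45a was level with pool 2, at a log2 ratio of 0.0007.

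p53 itself and its regulators had 17 tested genes of 22, with 7 positive and 10 negative differences, 1 above both pools (22.4% of all genes), 4 below both (17.2% of all genes) and a median of -0.0625. Trp53, the gene of p53, read 7.63 and 7.69 in knockout, between 7.39 in pool 1 and 8.61 in pool 2, with a difference of -0.34 ± 0.41 (SE, n = 2 each; limma adjusted p = 0.844) and 0.0034 by its other probe. Mdm4, a partner of Mdm2 in holding p53 down, stood at 0.07 and 0.02 by its probes. The p53 relative Trp63 was at -0.26 and the p53 kinase gene Hipk2 at -0.14 (0.0069 by its other probe). Trp53bp1, a DNA repair factor gene, stood at 0.38 (-0.01 by its other probe) and Ppm1d, which encodes a phosphatase that turns the damage response off, at -0.20 (0.12 by its other probe). In Trp53, Hipk2, Trp53bp1 and Ppm1d the sign thus depended on the probe.

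Cell death genes outside the p53 list were spread around zero. Of the 5 tested anti-apoptotic BCL2 family genes (of 6) 3 had a positive difference, with a median of 0.16 that was -0.045 against pool 1 and 0.26 against pool 2, so the direction depended on the pool. Mcl1, whose protein Noxa binds, stood at 0.31 (0.07 by its other probe), Bcl2l2 at 0.21, Bcl2a1b at 0.16 and Bcl2l1 at -0.11. Of the 8 tested pro-apoptotic members (of 10) 4 were positive, with a median of 0.03. The BH3-only genes Bmf and Bcl2l11 (Bim) stood at 0.31 and 0.29, Bnip3, a mitophagy gene, at 0.28 and Bid at -0.18. The caspase and apoptosome list had 17 tested genes of 18, 8 positive and 9 negative, with a median of -0.027 (-0.038 against pool 1 and 0.057 against pool 2). Its 4 genes of smallest p were Birc2, an inhibitor of apoptosis, at 0.14, the initiator caspase genes Casp9 at 0.15 and Casp2 at 0.31, and the apoptosome scaffold gene Apaf1 at 0.14. Of the 7 tested death receptor genes (of 11) 1 was positive and 6 were negative, where 44.8% of all genes were negative. Their median was -0.08, with -0.0055 against pool 1, -0.14 against pool 2 and 0.06 on the shared array, so the direction depended on the comparison. The adaptor gene Fadd stood at -0.19, the caspase-8 regulator gene Cflar at -0.13, the adaptor gene Traf2 at -0.14 and the receptor gene Tnfrsf1a at 0.13. No gene of these lists had an unadjusted p under 0.05.

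None of the cell cycle genes passed. The other inhibitors of cyclin-dependent kinases had 5 tested genes of 7 and a median of -0.05. Cdkn1c (p57), which restrains growth in the embryo, read 9.22 and 9.07 in knockout, against 9.40 in pool 1 and 9.69 in pool 2, a difference of -0.40 ± 0.15 (SE, n = 2 each; limma adjusted p = 0.802). Its unadjusted p was 0.0453, and both knockout arrays lay below both pools. Cdkn1b (p27) stood at -0.32 (0.12 by its other probe), Cdkn2b at 0.31 and Cdkn2d at 0.13. Genes of DNA replication and mitosis that p53 represses through p21 were 23 tested of 24, with 5 positive and 18 negative differences, where 44.8% of all genes were negative. Of them 1 lay above both pools (22.4% of all genes) and 5 below both (17.2% of all genes). Their median was -0.04, with -0.16 against pool 1 and 0.09 against pool 2, so the direction depended on the pool. Ccna2 (cyclin A2) was at -0.26, the helicase subunit gene Mcm5 at -0.21, the mitotic kinase gene Aurkb at -0.13 and the mitotic transcription factor gene Foxm1 at 0.12.

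**Figure D5:**
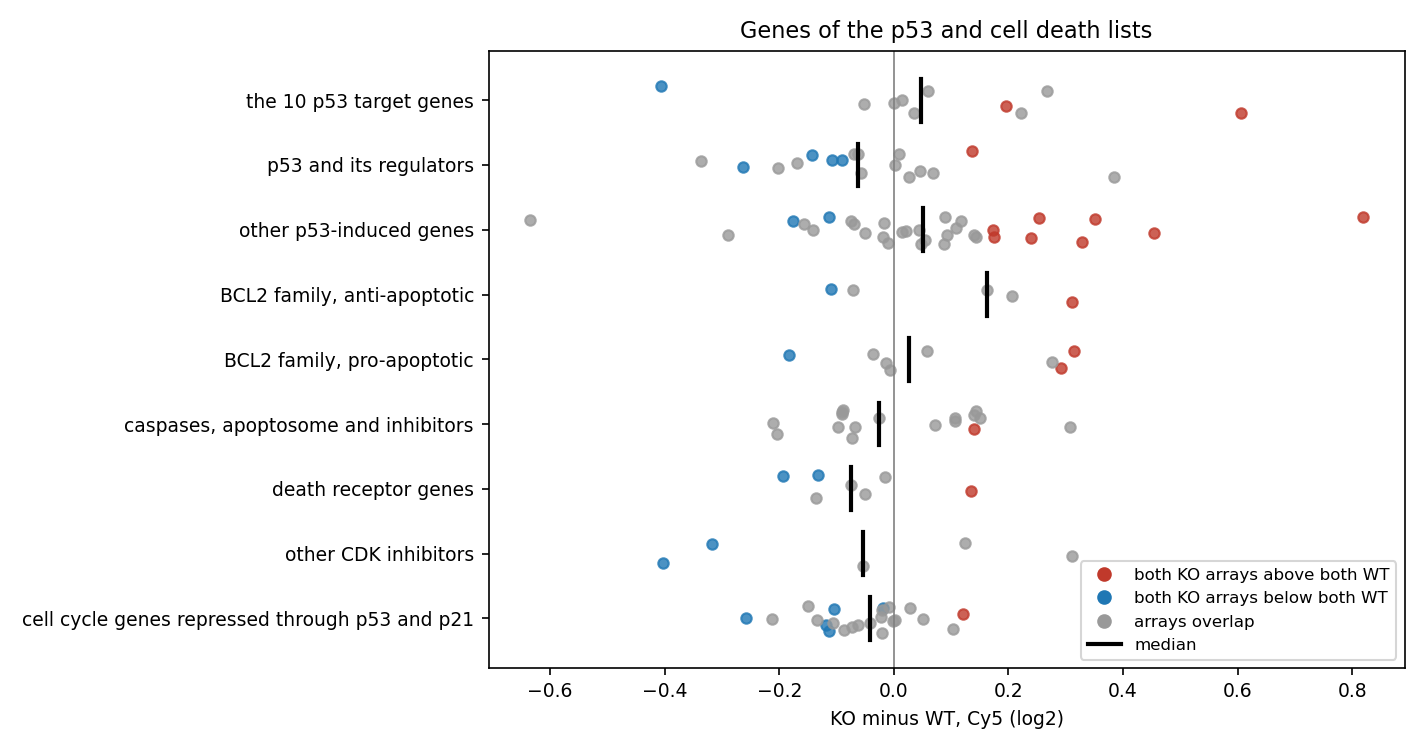
Log2 difference of knockout minus wild type in Cy5 for each tested gene of the 10 p53 target genes and the 8 other lists; red points have both knockout arrays above both wild-type arrays, blue points both below, grey points overlap, and black bars are list medians. The lowest median is -0.08, for the death receptor genes (-0.0055 against pool 1 alone). The highest is 0.16, for the anti-apoptotic BCL2 family (-0.045 against pool 1 alone). Gdf15, at 0.82, and Pmaip1, at 0.61, are the points farthest to the right.

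Genes that answer to handling and stress in sorted cells leaned the same way as Pmaip1 and Gdf15. All 11 tested genes of a list of 12 (Hspa1b had no probe by symbol) had a positive difference, as 55.2% of all genes did. Of them 8 lay above both pools (22.4% of all genes), 5 had an unadjusted p under 0.05 (4.17% of all genes) and the median was 0.32. Their summed levels were 19936 and 22155 in knockout, against 16660 in pool 1 and 16727 in pool 2. The 3 of smallest p were the heat shock gene Hspa1a, at 0.83, the immediate early gene Egr1, at 0.46, and the stress factor gene Atf3, at 0.63, and Fosb, at 1.0898, had the greatest difference. None passed, with an adjusted p by limma of 0.802 for each of these 4, and their part in the Pmaip1 and Gdf15 values was not tested.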

How the data were processed

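The 4 two-colour Agilent mouse arrays of 1 slide were labelled from 0.5 µg of total RNA. Per the file headers, Agilent Feature Extraction 10.7.3.1 gave each spot's median intensity and local background in Cy3 and Cy5, a processed intensity, other columns that hold flags, and the log10 ratio of Cy5 over Cy3. The deposited series table held that log10 ratio unchanged on every array, for 45018 of 45018 spots (relative tolerance 0.001). Cy5 intensities were corrected with normexp (offset 50), which understates changes of dim probes, and quantile normalized on the log2 scale. Control spots, outlier flags and 441 spots in a dark patch of WT replicate 1 were left out, and repeated spots were averaged. RefSeq accessions (GRCm38.p6) gave symbols to 22951 of 41174 probes, and the brightest probe stood for a gene (10447 of 16006 with a symbol). Differences were tested across all genes with limma 3.58.1 in R 4.3.3, two-sided, Benjamini-Hochberg adjusted, threshold 0.05. The procedure was tested on simulated data.

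The members, the lists and the Cy5 comparison were chosen with earlier results of these data known, and the 7-channel counts after their values were seen. All 10 members are named, and of each other list the 4 genes with the smallest p, with Trp53 and Mdm4. Nothing says that arrays of a group came from separate animals, so the p-values cover no more than array-to-array spread, possibly technical. That spread was not alike in the groups. Over all genes the SD of pool 1 minus pool 2 was 0.471, and that of KO replicate 2 minus KO replicate 1 was 0.154. For each gene limma fitted 1 residual spread for both groups, to which the difference between the wild-type pools thus added most. There were 2 arrays per group, and their number limits the precision. Alternatives are given in the closing section.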

Additional observations from a re-analysis of the deposited data

How the results depend on the processing

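The count of genes called was 0 under every setting run except without WT replicate 1, so it ran from 0 to 4190 over the arrays left out. With 1 array left out, 4 to 5 of the 10 members were higher without overlap, where 31.1% to 49.1% of all genes were, beside 22.4% with all arrays. Median centring gave 6 (37.6% of all genes) and a median difference of 0.52, beside 0.33 over all genes. The 75th percentile centring gave 5 (22.4% of all genes) and 0.17, beside -0.016, and the log ratio of Cy5 over Cy3 gave 1 (12.9% of all genes). The log ratios take in KO replicate 1, with its nearly empty Cy3 channel. The cause of these shifts was not tested. Pmaip1 and Bbc3 stayed positive under all 15 settings, between 0.36 and 1.06 and between 0.089 and 0.72, and 3 member values became called, all without WT replicate 1.

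Signs turned in 22 of 150 member values. Not all of the 150 could turn. Changing the filter on dim probes and adding the replicate block left every member value as it was. The mean of all probes could not alter the 6 members with 1 probe. Over the arrays left out in turn the difference ran from -0.0395 to 0.57 for Cdkn1a, -0.0123 to 0.13 for Mdm2, -0.0155 to 0.0426 for Bax, -0.17 to 0.0626 for Ccng1, -0.28 to 0.28 for Sesn1, -0.0333 to 0.48 for Phlda3 and -0.0259 to 0.0949 for Trp53inp1. Median centring turned Perp and Ccng1 to 0.14 and 0.39, 75th percentile centring Mdm2 and Ccng1 to -0.0578 and 0.0412, the processed signal Ccng1 to 0.0976, and the mean of all probes Mdm2 and Sesn1 to -0.0109 and -0.0664. As log ratios, which take in the nearly empty Cy3 channel of KO replicate 1, Bax, Ccng1, Sesn1 and Trp53inp1 stood at -0.077, 0.0313, -0.0114 and -0.0655. Sesn1 also turned to -0.0104 without background subtraction and to -0.0026 with the patch kept. The causes were not tested.

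With the replicate block the count was 0 and the median 0.0467, which the block cannot change with 1 array of each group per block. The labels do not number the knockout pools. Over genes, the difference of KO replicate 1 minus KO replicate 2 correlated with WT replicate 1 minus WT replicate 2 at r = 0.0396. The numbers were therefore not taken to pair the arrays.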
